A study of Arabidopsis thaliana with 12 samples.

Results

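Day 10 was compared with day 6 in Arabidopsis suspension cells forming tracheary elements, over the 4 arrays of those days among 12 in the series. The unit tested was the probe set, a group of short probes that reads 1 or more genes, and its measure was the log2 of the deposited MAS5 signal. Of 22746 probe sets other than the platform's controls, 13760 entered the test because they reached the 40th percentile of the array on both arrays of day 6 or on both of day 10, and 8986 did not. That percentile was a signal of 21.6 and 20.1 on the arrays of day 6 and of 21.1 and 21.5 on those of day 10. On replicate 2 of day 6 the nearest probe sets on the 2 sides of it were at 20.067 and 20.070.

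The cells were Col-0, a wild-type accession. As the labels describe it, an aliquot of 7.5 ml from a subculture aged 7 days went into 42.5 ml of new medium with MS salts, sucrose, 1 uM brassinolide, which is a brassinosteroid hormone, and 10 mM boric acid, and both days compared are from it. The labels also list a medium with the synthetic auxin 2,4-D, which the induction medium is not said to contain. The labelled temperature is 27 C on days 2, 6 and 10 and 22 C on days 0, 4 and 8, so the labels of days 6 and 10 differ in the day only. No culture was left uninduced to day 6 or day 10. Separate cultures for the 2 arrays of each day are not stated in the labels, so a difference between cultures cannot be told apart from time. The p-values therefore reflect only how these arrays scatter, which may be technical, and having few arrays limits the precision. A culture of this kind holds cells that become vessel elements and cells that do not, and fewer cells of a type and less RNA per cell cannot be told apart in a bulk extract.

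Tracheary elements are the water-conducting cells of xylem. They lay down a patterned secondary wall of cellulose, xylan and lignin along bands of cortical microtubules, and then digest their own contents with vacuolar proteases and nucleases and die, leaving a hollow wall. Auxin and brassinosteroids both act in their formation.

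Of the genes measured on all 4 arrays, 12 of 14 in a list of secondary wall loci, 3 of 4 of vessel cell death and 7 of 14 of the microtubule cytoskeleton were lower on day 10 than on day 6. Members and lists were chosen with earlier results of these data known, so these counts describe the lists and are not independent evidence. Auxin response genes GH3.3 and LBD16, the methionine sulfoxide reductase MSRB9, the stress regulator STZ and subunits of RNA polymerase I were higher. With limma and Benjamini-Hochberg adjustment, 2945 probe sets passed at an adjusted p under 0.05, a background share of 21.4%. Of these 1631 were higher on day 10 (11.9%) and 1314 lower (9.55%). Among the 12809 probe sets that reached the 40th percentile on all 4 arrays, 2719 passed (21.2%), 1525 higher (11.9%) and 1194 lower (9.32%), so a late decline does not describe the count of calls. With every array centred on its median the split was 1114 higher and 1494 lower, so higher calls were 42.7% of calls instead of 55.4%, and the side of an even split depends on the scaling. Calls of at least 2-fold numbered 632 (4.59%), of which 217 were higher (1.58%) and 415 lower (3.02%). On the log2 scale the median change was 0.05 over all tested probe sets, that of the lower calls -0.69 and that of the higher calls 0.56. Leaving out replicate 1 of day 6 gave 1628 calls and leaving out its replicate 2 gave 1726. Leaving out replicate 1 of day 10 gave 1567 and leaving out its replicate 2 gave 1561.

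**Figure D1:**
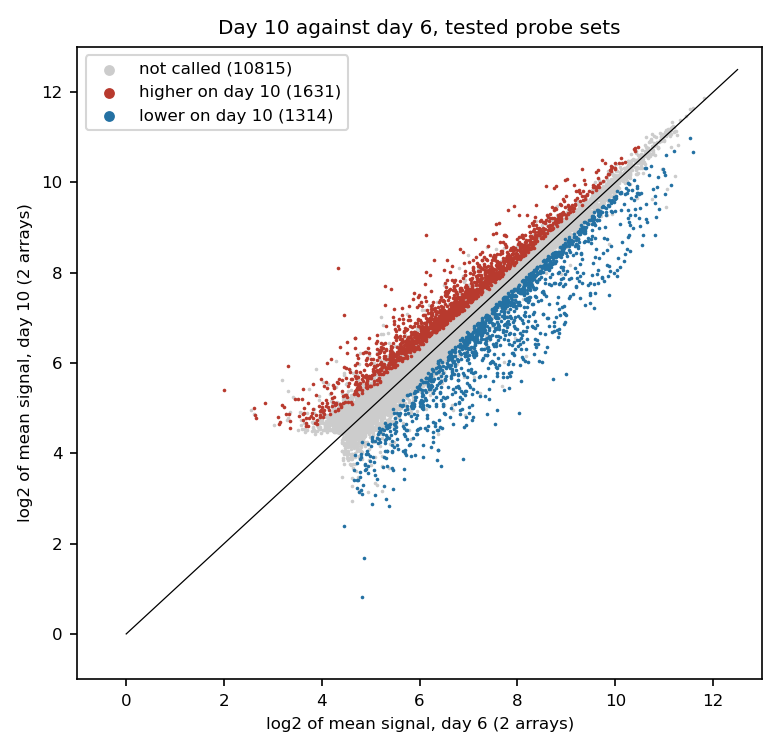
Each point is 1 of 13760 tested probe sets, with log2 of the mean signal of the 2 arrays of day 6 on the horizontal axis and of day 10 on the vertical axis, and the line marks equal signal. Of the 1314 lower calls 415, and of the 1631 higher calls 217, lie at least 2-fold from the line.

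Median signals of the arrays were 38.9 and 38.1 on day 6 and 39.97 and 39.98 on day 10, slightly higher on day 10. Within each day of the series the r of log2 signal between its 2 arrays was 0.962 to 0.966. The ratio of 3' to 5' signal, a measure of RNA length, was 1.19 and 1.21 for actin on day 6 and 1.21 and 1.15 on day 10, and 0.837 and 0.931 against 0.843 and 0.964 for GAPDH. A second actin pair gave higher ratios, 4.67 and 4.92 on day 6 and 6.09 and 4.87 on day 10. The 25S ribosomal RNA control read 25.6 and 35.1 on day 6 and 23.7 and 74.6 on day 10, so the days overlap in each of these RNA measures. That control read 219 and 2183 on day 2 and 83.3 and 1349 on day 4, whose arrays share the estimate of spread. Of the tested probe sets, 12809 passed the filter on both days, 462 on day 6 alone and 489 on day 10 alone. A gene below that percentile on an array of 1 of the days, here called dim, could enter the test only through the other day, where it is high. Such genes are given as a bound. An adjusted p beside a bound is from limma on the signals as deposited and does not test the bound, unless raised signals are named. For genes dim on day 6 or day 10 it is also no independent support, given how they entered. Dim genes are left out of the counts and medians of the lists below, in which measured means at or above the percentile on all 4 arrays. Both arrays of day 10 lay above both of day 6 for 5194 probe sets (37.7%) and below both for 3657 (26.6%), and all 2945 calls are among these.

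The genes of xylan synthesis come first, since xylan is the main hemicellulose of the vessel wall. Of 4 measured, 2 were lower and none higher, with a median change of -2.01 against 0.05 for all tested probe sets. Beside list counts stand the 11.9% higher and 9.32% lower of all measured probe sets. GUT2, known as IRX10 (AT1G27440), a glycosyltransferase that builds the xylan backbone, read 564 and 426 on day 6 and 145 and 131 on day 10. Both arrays of day 10 were thus below both of day 6, and the change was -1.83 ± 0.16 (standard error of the limma fit, n = 2 arrays a day, adjusted p = 4.36e-05). IRX15-L (AT5G67210), which with IRX15 acts in xylan synthesis in the Golgi, went from 417 and 343 to 83.7 and 68.7, -2.32 ± 0.57 (adjusted p = 0.0148). The groups do not overlap, yet IRX15-L did not pass without either array of day 6 or of day 10, where its change was -2.46 to -2.18 and its adjusted p at most 0.0888. IRX15 (AT3G50220) read 209.8 and 202 and then 44.8 and 45.3, a difference close to that of IRX15-L, but missed the threshold at -2.19 ± 0.75 (adjusted p = 0.0591). Its signals were near 0 on day 0 (mean 0.656) and day 2 (mean 2.21). Leaving out either array of day 2 brought it past the threshold, while leaving out either of day 0 did not. In the 4 arrays of days 6 and 10 alone the adjusted p was 3.1e-05. GUT1 (AT5G61840), a close relative of GUT2, stayed at 185 and 177 on day 6 and 179 and 177 on day 10, a difference of -0.03 ± 0.10 (adjusted p = 0.875). The arrays of the 2 days overlap.

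In the lignin list, 2 of 3 measured genes were lower and none higher (median -1.06). AT5G51890, a locus of that list and of the class III peroxidases, had the largest fall of any gene measured on all 4 arrays. Its signal was 501 and 518 on day 6 and 46 and 61.7 on day 10, -3.26 ± 0.37 (adjusted p = 0.000195), so day 10 was below even the day 4 mean of 84.2. HCT (AT5G48930), the acyltransferase that makes the shikimate esters of the monolignol pathway, read 787 and 663 and then 400.4 and 404, -0.84 ± 0.13 (adjusted p = 0.00129). Both days were above the day 4 mean of 277. PRX72 (AT5G66390), a class III peroxidase, read 235 and 202 on day 6 and 114 and 96.1 on day 10 without overlap but did not pass (-1.06 ± 0.64, adjusted p = 0.267), and its day 0 mean was 2.5. It passed in the 4 arrays alone (adjusted p = 0.00086).

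Vessel cell death genes were lower in 3 of 4 measured cases (median -0.96). AT4G18425, a locus of that list, went from 536 and 432 to 161 and 141, -1.68 ± 0.16 (adjusted p = 5.77e-05). AT4G04460, also of that list, read 509 and 466 and 219 and 253, -1.05 ± 0.12 (adjusted p = 0.000164). Unlike AT4G18425 it had already come down from a day 4 mean of 1199.7. The carboxypeptidase gene scpl48 (AT3G45010) was the brightest member, at 3282 and 2588 on day 6 and 2010.4 and 2029.8 on day 10. It fell by 0.53 ± 0.13 (adjusted p = 0.0126), less than the others, and lost the call when replicate 1 of day 6 (-0.36) or either array of day 10 (-0.52 and -0.54) was left out. AT2G14095, the fourth, read 52.6 and 36.3 and 24.1 and 23.5 and did not pass (-0.88 ± 0.57, adjusted p = 0.305), though it did in the 4 arrays alone (adjusted p = 0.023). Summed over the 4 genes the signal was 4379 and 3522 on day 6 and 2415 and 2448 on day 10, while the 4 xylan genes summed to 1377 and 1148 and then 452 and 423. The only xylem regulator tested, the zinc finger gene AtC3H14 (AT1G66810), was dim on day 10 and at least 1.3-fold lower (adjusted p = 0.0165). The call was lost when signals were first raised to the 40th percentile (adjusted p = 0.0742) and without any 1 array of days 6 and 10 (adjusted p of 0.0724 to 0.0905).

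**Figure D2:**
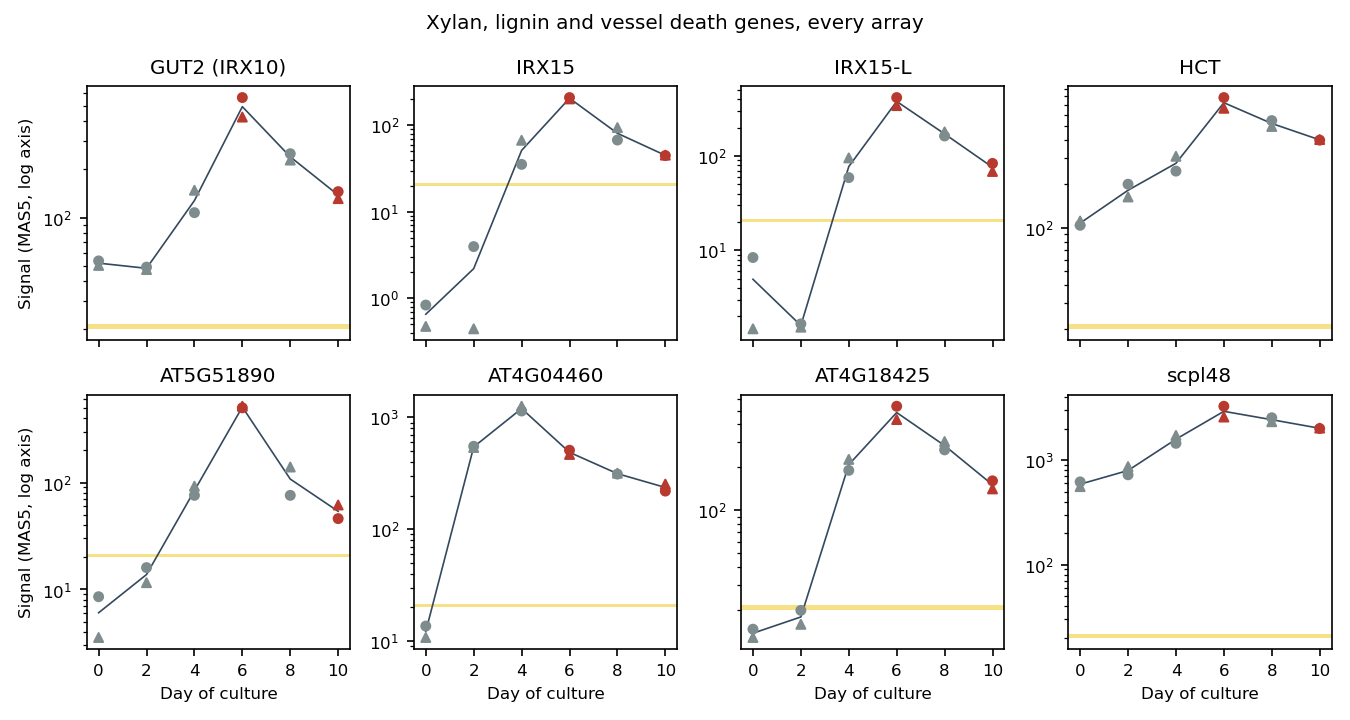
Signal of 8 xylan, lignin and vessel death genes on a log axis by day of culture, with circles for replicate 1, triangles for replicate 2, a line through the means, red for days 6 and 10 and a band for the 40th percentile of the arrays of days 6 and 10. In all 8 panels both day 10 points lie below both day 6 points, and AT4G04460 has its highest mean on day 4 while the other 7 have it on day 6.

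A list of 22 loci, recalled from published compilations of genes coexpressed with secondary wall cellulose synthases, had 14 measured members and 1 that was dim. Such compilations may hold arrays of cultures like these, so their direction is not independent evidence. Of the 14, 12 were lower and 1 higher (median -1.72), and 8 were lower when any 1 array of day 6 or day 10 was left out. AT1G58070 read 444 and 399.8 and 65.6 and 34.7, -3.14 ± 0.30 (adjusted p = 6.53e-05), the second largest fall among genes measured on all 4 arrays. AT1G54790 went from 451 and 379 to 118 and 87.4, -2.03 ± 0.20 (adjusted p = 6.97e-05). AT1G09440 fell by 2.21 ± 0.64 (adjusted p = 0.0308) but not past the threshold without any 1 of the 4 arrays (-2.49 to -1.94), with no filter or with no variance trend. ATXYN3 (AT4G08160), a xylanase-family gene, went from 1255 and 1189.6 to 469 and 420.2, -1.46 ± 0.42 (adjusted p = 0.0281), and lost the call without any 1 of the 4 arrays (-1.54 to -1.38) or with no variance trend. TBL34 (AT2G38320), which acetylates xylan, went from 938 and 876 to 383 and 339, -1.33 ± 0.22 (adjusted p = 0.00172). TBL34 kept its call in every alternative. AT1G80170 alone was higher, 0.44 ± 0.12 (adjusted p = 0.0278), and it lost the call with centred arrays and without any 1 of the 4 arrays (0.40 to 0.47).

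Other wall genes moved less uniformly. Of 5 GH9 endoglucanases, which cut cellulose-like glucans, 3 were lower and none higher (median -0.67). GH9B7 (AT1G75680) read 1349 and 1167 on day 6 and 616 and 629 on day 10, -1.01 ± 0.09 (adjusted p = 4.54e-05). GH9B5 (AT1G19940) read 107 and 69.9 and 22.3 and 24.7, -1.88 ± 0.23 (adjusted p = 0.00026). These 2 passed in every alternative, and they alone passed without replicate 1 of day 6 or without either array of day 10. GH9C2 fell by 0.67 ± 0.20 (adjusted p = 0.0355), and GH9B17, not counted here, was dim on day 10 and at least 1.56-fold lower (adjusted p = 0.0369). Both lost the call with no filter, and GH9C2 also with no variance trend. Of 12 TBL wall acetyltransferases, TBL34 and TBL36 were lower, TBL39 was higher and 9 did not pass, with a median of -0.08. TBL36 and TBL39 did not pass without any 1 of the 4 arrays. Of 4 expansins, which loosen walls, EXPA4 (-0.94 ± 0.25) and EXPA15 (-0.55 ± 0.15) were lower and none higher, and both lost the call without replicate 2 of day 6 or either array of day 10. Of 5 class III peroxidases, AT5G51890 was lower and PRXR1 (AT4G21960) and PRX25 (AT2G41480) higher (median -1.06). The lower count was 2 with quantile normalization and 3 with the pseudocount, with raised arrays, in the 4 arrays alone and without either array of day 0, whereas in the 12 arrays PRX52 (-1.32 ± 0.51, adjusted p = 0.0906) and PRX72 did not pass. PRXR1 rose from 505 and 515 to 764 and 907, 0.71 ± 0.09 (adjusted p = 0.000356). PRX25 rose by 1.25 ± 0.35 (adjusted p = 0.0252) but missed the threshold without either array of day 6 or replicate 1 of day 10 (0.94 to 1.42).

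Cortical microtubules lie under the bands of secondary wall, and genes for them were lower in 7 of 14 measured cases and higher in none (median -0.37). That count was 6 without replicate 1 of day 6 and 5 with its replicate 2 or either array of day 10 left out. The beta-tubulin TUB6 (AT5G12250) read 1434 and 1239.6 on day 6 and 735 and 819 on day 10, -0.78 ± 0.13 (adjusted p = 0.00209). The alpha-tubulin TUA6 went from 1474 and 1343 to 835 and 910.1, -0.69 ± 0.09 (adjusted p = 0.000373). TUB5 (AT1G20010), not among the 14, was dim on day 10, at 15.9 and 20.3 against 55.8 and 54.2, and at least 2.59-fold lower. It entered the test only through day 6 (limma adjusted p = 0.00083, not a test of that bound). IQD31 (AT1G74690), a calmodulin-binding protein of microtubules, went from 394 and 343 to 187 and 203, -0.92 ± 0.11 (adjusted p = 0.00027). KINESIN-13A, which clears microtubules from wall pits, changed less, from 537 and 544 to 423 and 423 (-0.35 ± 0.09, adjusted p = 0.02), and did not pass without any 1 of the 4 arrays (-0.36 to -0.35). TUB7 (-0.08 ± 0.11) and TUA1 (0.18 ± 0.10) did not pass. The actin gene ACT11 (AT3G12110) went from 65.9 and 58.3 to 20.5 and 25.6, at least 2.67-fold lower with 1 array of day 10 dim (adjusted p = 0.000274). None of 5 measured NET actin-binding proteins passed.

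Protein turnover genes outside the vessel death list were mixed. ATG8H (AT3G06420), 1 of the ubiquitin-like proteins that coat autophagosomes, read 162 and 139.7 on day 6 and 61.6 and 43.2 on day 10, -1.55 ± 0.25 (adjusted p = 0.00163). Of the 11 autophagy genes measured, ATG8I (AT3G15580) was the other that fell (-0.32 ± 0.09), and it did not pass without either array of day 6 or replicate 2 of day 10. The remaining 9 lay between -0.32 ± 0.15 and 0.17 ± 0.09. ALPHA-VPE (AT2G25940), a vacuolar processing protease, went from 283 and 305 to 193 and 182, -0.65 ± 0.12 (adjusted p = 0.00314). Of 8 serine carboxypeptidases outside the vessel death list 4 were lower and 1 higher. Without replicate 1 of day 10 the lower count was 1, and with replicate 1 of day 6 or replicate 2 of day 10 left out the higher count was 0, as under the 60th percentile filter and in the 4 arrays alone. The one with the largest fall, scpl20 (AT4G12910), went from 489.7 and 414 to 167 and 185, -1.35 ± 0.19 (adjusted p = 0.000753). The subtilase SBTI1.1 (AT1G01900) read 118 and 141 and 30.5 and 28.6, -2.13 ± 0.19 (adjusted p = 4.36e-05), after a day 4 mean of 332. None of 9 vacuolar sorting genes passed. Of 27 ubiquitin conjugation genes 3 were higher (11.1%) and 2 lower (7.41%), near the shares of all measured probe sets. Leaving out replicate 1 or replicate 2 of day 6 gave 0 and 1 higher, as did leaving out those of day 10, and 1 was lower without replicate 1 of either day. PUB25 (AT3G19380), a ubiquitin ligase, fell by 0.96 ± 0.20 (adjusted p = 0.00635).

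Genes of carbon metabolism included falls of more than 2-fold. ATP-citrate lyase makes cytosolic acetyl-CoA from citrate, the start of fatty acid elongation and other pathways. Its subunit gene ACLA-2 (AT1G60810) read 1148 and 972 on day 6 and 308 and 332 on day 10, -1.72 ± 0.11 (adjusted p = 1.36e-05). ACLA-1 (AT1G10670) went from 1475 and 1231 to 604 and 631, -1.13 ± 0.09 (adjusted p = 3.75e-05). ACLA-3 did not pass, at -0.24 ± 0.10 (adjusted p = 0.0993). In the list of citrate cycle and citrate lyase genes 3 of 8 were lower and 1 higher. Of the cycle enzymes, SDH2-1, a subunit of succinate dehydrogenase, was lower (-0.33 ± 0.08, adjusted p = 0.011) and IDH-VI, a subunit of isocitrate dehydrogenase, higher (0.38 ± 0.09, adjusted p = 0.0144). Both lost the call with replicate 2 of day 6 or replicate 1 of day 10 left out, and IDH-V (0.02 ± 0.08), SDH1-1 (0.13 ± 0.13) and SDH2-2 (-0.07 ± 0.11) did not pass. ICL (AT3G21720), isocitrate lyase of the glyoxylate cycle, read 223 and 167 and then 68.7 and 70.5, -1.47 ± 0.15 (adjusted p = 0.000101). MCCA (AT1G03090), of leucine breakdown, went from 119 and 133 to 58.6 and 44.9, -1.29 ± 0.21 (adjusted p = 0.00155). The sucrose exporter SWEET11 (AT3G48740) read 80.3 and 65 and 28.6 and 37.3, -1.15 ± 0.17 (adjusted p = 0.00101), far below its day 4 mean of 639. SWEET17 (AT4G15920), a fructose carrier of the vacuole membrane, changed by -0.51 ± 0.09 (adjusted p = 0.00217), and 6 of 9 sugar transporters did not pass, with 2 lower and 1 higher. That 1 did not pass with centred arrays or without replicate 2 of day 6 or either array of day 10. Under the 60th percentile filter only 1 of the 2 lower genes entered the test. Of 9 beta-glucosidases 3 were lower and 1 higher, with BGLU41 (AT5G54570) at -1.53 ± 0.28 (adjusted p = 0.00312) and BGLU25 (AT3G03640) at -0.88 ± 0.14 (adjusted p = 0.00141). The higher one, BGLU15 (0.46 ± 0.13, adjusted p = 0.0227), lost the call if replicate 2 of day 6 or either array of day 10 was left out, and with replicate 1 of day 6 or replicate 2 of day 10 left out 2 were lower.

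Nuclear photosynthesis genes were lower in 2 of 3 measured cases (median -0.93). RCA (AT2G39730), Rubisco activase, went from 239 and 254 to 123 and 137, -0.93 ± 0.14 (adjusted p = 0.000887). LHCB4.3 (-1.23 ± 0.33) did not pass without any 1 of the 4 arrays, nor did PSBW, which was dim on day 10 and at least 1.4-fold lower. RCA is also the 1 measured marker of green mesophyll. Genes of the plastid genome showed 5 higher (7.94%) and 1 lower of 63 measured. The photosystem I assembly gene ycf3 read 65.8 and 35.6 on day 6 and 144 and 106 on day 10, 1.36 ± 0.27 (adjusted p = 0.00454), with a wide spread between the 2 arrays of day 6. With replicate 2 of day 6 or replicate 1 of day 10 left out, fewer plastid genes were higher, and their share stayed below that of all tested probe sets. It was above with replicate 1 of day 6 or replicate 2 of day 10 left out. With the replicate number as a block it was 33.3% against 13.1% of all tested, and with no filter 6.35% against 6.05%. Which share is larger thus depends on the arrays and the processing. The 1 lower gene did not pass without any 1 array of days 0, 6, 8 or 10, with no filter, with a filter over all days or with no variance trend. Of 13 mitochondrial genes, cox2 alone passed (0.68 ± 0.21, adjusted p = 0.0366). It did not without replicate 1 of day 6 or either array of day 10, with centred arrays, with no filter or with no variance trend.

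Among the genes higher on day 10, GH3.3 (AT2G23170), which conjugates auxin to amino acids, had the second largest rise of genes measured on all 4 arrays. It read 33.4 and 44.7 on day 6 and 196 and 221 on day 10, 2.43 ± 0.37 (adjusted p = 0.00117). Its means were 519.96 on day 0, 3.53 on day 4, below the 40th percentile, and 159.7 on day 8, so the rise followed a low on day 4 and stayed under the day 0 level. LBD16 (AT2G42430), an auxin-induced regulator of lateral root formation, went from 43.9 and 33.6 to 70.6 and 68.6, 0.86 ± 0.17 (adjusted p = 0.00494), also under its day 0 mean of 89.1. These were the 2 of 8 auxin response genes that passed, and none was lower (median 0.23). GH3.5, at 49.6 and 65.1 and then 42.6 and 68.4, overlapped between the days. BRL1 (AT1G55610), a brassinosteroid receptor, rose from 143 and 142 to 215 and 225, 0.62 ± 0.14 (adjusted p = 0.00784), and lost the call without replicate 2 of day 10 (0.59).

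Redox, stress and defence lists were small and mixed. MSRB9 (AT4G21850), which repairs oxidised methionine, read 72 and 68.6 on day 6 and 226 and 292 on day 10, 1.87 ± 0.12 (adjusted p = 1.36e-05). Its day 0 mean of 1131 was above both. MSRB5 (AT4G04830) rose by 1.59 ± 0.38 (adjusted p = 0.0119) but not past the threshold with replicate 2 left out on day 6 (1.35) or day 10 (1.28). STZ, also ZAT10 (AT1G27730), a zinc finger repressor of salt and cold responses, went from 57.5 and 58.5 to 153 and 190.4, 1.56 ± 0.22 (adjusted p = 0.000672). LCR69 (AT2G02100), a small cysteine-rich protein of the defensin type, read 416 and 346 and 1014 and 925, 1.35 ± 0.19 (adjusted p = 0.000664). Of its defence list of 3, 2 were higher and none lower, and the second, the chitinase gene CHI (0.58 ± 0.18, adjusted p = 0.0369), lost the call without any 1 of the 4 arrays, with no filter or with no variance trend. Of 18 UGT glycosyltransferases, which attach sugars to small molecules, 4 were higher and 1 lower (median 0.15), and 5 more were dim on an array. UGT73B4 (AT2G15490) went from 35.7 and 33.9 to 84.6 and 96.3, 1.37 ± 0.16 (adjusted p = 0.000185). The count of higher UGT genes was 1 with replicate 1 of day 6 left out and 2 and 1 with replicate 1 or replicate 2 of day 10 left out, and the lower one lost the call with replicate 1 of day 10 left out. Of 6 glutathione transferases, GSTU22 (0.47 ± 0.10) and GSTU27 (0.72 ± 0.17) were higher and GSTU18 (-0.91 ± 0.27) lower. With replicate 1 of day 10 left out, GSTU22 (0.42), GSTU27 (0.66) and GSTU18 (-0.74) lost the call. GSTU22 (0.42) and GSTU18 (-0.66) also lost it without replicate 1 of day 6. GSTU27 lost it without replicate 2 of day 6 (0.68), and GSTU18 without replicate 2 of day 10 (-1.08). GSTU18 did not pass with no filter, and it did not enter the test under the 60th percentile filter. In the dehydrin and LEA list of 7, 2 were lower and 1 higher (median 0.14). There HIRD11 (AT1G54410) fell from 391.9 and 364 to 219.8 and 219.9, -0.78 ± 0.10 (adjusted p = 0.000372), while RD2 rose by 0.32 ± 0.08 (adjusted p = 0.0124). With replicate 2 of day 6 or either array of day 10 left out, RD2 did not pass and 1 was lower, as with no variance trend.

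**Figure D3:**
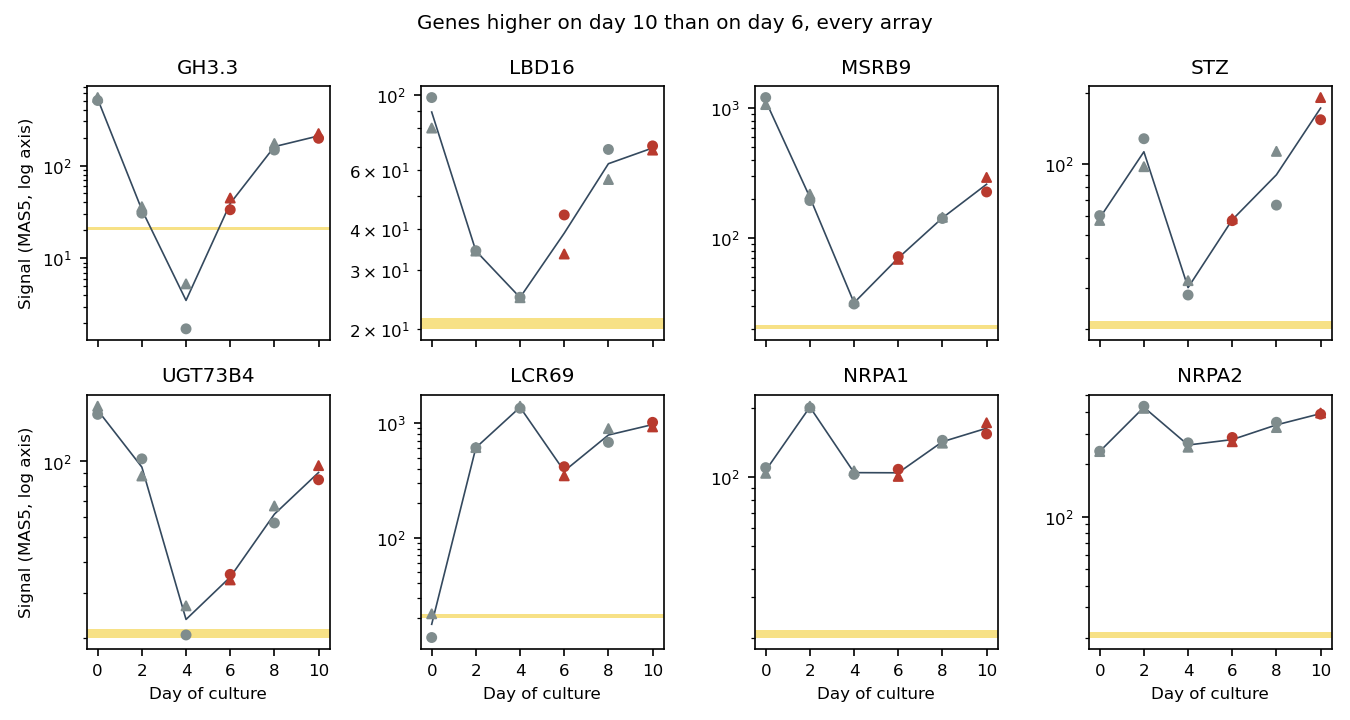
Signal of 8 genes higher on day 10 on a log axis by day of culture, drawn as for the wall genes. Both red points of day 10 lie above both of day 6 in all 8 panels, and GH3.3, MSRB9, LBD16 and UGT73B4 had their highest mean on day 0 and their lowest on day 4.

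Several genes of RNA synthesis were higher. NRPA1 (AT3G57660), the largest subunit of RNA polymerase I, which transcribes ribosomal RNA, read 108 and 101 on day 6 and 154 and 173 on day 10, 0.64 ± 0.09 (adjusted p = 0.00083). NRPA2 (AT1G29940) went from 286 and 269.7 to 389 and 395, 0.50 ± 0.08 (adjusted p = 0.00107). YAO (AT4G05410), which processes ribosomal RNA, went from 225 and 227 to 326 and 332, 0.54 ± 0.09 (adjusted p = 0.00233). In that list 4 of 7 were higher and none lower (median 0.46). NRPB12 (AT5G41010), a small subunit shared by RNA polymerases, rose by 0.66 ± 0.10 (adjusted p = 0.000813). In its list, of RNA polymerase II, 2 of 9 were higher and 7 did not pass (median 0.15). The other higher one, NRPB6A (0.26), lost the call with centred arrays, with no filter and with no variance trend. Among 11 cell division genes 3 were higher and none lower (median 0.29). ATSMC2 (AT3G47460), of the condensin complex, went from 122 and 135 to 197 and 193, 0.60 ± 0.11 (adjusted p = 0.00274). POLA3 (AT5G41880), of DNA replication, rose by 0.60 ± 0.11 (adjusted p = 0.00284) and the histone gene HTB1 by 0.50 ± 0.10 (adjusted p = 0.00452). The mitotic kinase AUR2 was dim on day 10 and at least 1.54-fold lower (adjusted p = 0.0289), and it did not pass without any 1 of the 4 arrays. Summed over the 3 tested markers of dividing cells, AUR1, AUR2 and MCM7, the signal was 184 and 179.6 on day 6 and 178 and 229 on day 10, so the days overlap, and the part of dividing cells in these results was not tested.

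Transport and membrane genes added single members. The glucosinolate transporters GTR1 (AT3G47960) and GTR2 (AT5G62680) were higher, with GTR2 at 110.4 and 108 and 168 and 178, 0.67 ± 0.13 (adjusted p = 0.00375). GTR1 rose by 0.82 ± 0.19 (adjusted p = 0.0112) and lost the call with replicate 1 left out on day 6 (0.67) or day 10 (0.71). Of 6 measured tetraspanins 2 were higher and 1 lower. The lower one, TET7 (AT4G28050), went from 137 and 136 to 57.7 and 52.3, -1.32 ± 0.10 (adjusted p = 3.33e-05). TET5 rose by 0.93 ± 0.18 (adjusted p = 0.00373), and the other higher one, TET6, lost the call with no filter. The signal peptide gene RALFL24 (AT3G23805) read 98.8 and 121 and 52.4 and 45.9, -1.16 ± 0.18 (adjusted p = 0.00109). The MADS-box gene AGL96 (AT5G06500) fell by 1.16 ± 0.16 (adjusted p = 0.000538) in a family of 9 measured, of which AGL21 was higher (0.54 ± 0.16, adjusted p = 0.0313). AGL21 lost the call with centred arrays and without any 1 of the 4 arrays, as did AGL101, which was dim on day 6 and at least 1.58-fold higher.

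Beyond the lists, the 10 largest falls among genes with all 4 arrays at or above the 40th percentile ran from -3.26 to -2.36. They were AT5G51890 and AT1G58070 given above, then AT1G20030, AT5G10770, AT2G27740, AT3G48510, AT5G06930, AT2G05790, AT2G28410 and AT5G26330, which the files name by locus only. AT1G20030 read 267 and 256 on day 6 and 30.3 and 29.3 on day 10, -3.13 ± 0.27 (adjusted p = 4.18e-05). AT5G26330 was the brightest on day 6, at 966 and 907 against 192 and 173, -2.36 ± 0.16 (adjusted p = 1.55e-05). The 10 largest rises, led by one of 2.80, were AT2G04050, GH3.3, AT5G19890, AT3G22240, MSRB9, MSRB5, STZ, AT1G55450, AT5G10210 and AT2G36970. AT2G04050 read 94 and 45.7 and 471 and 439, 2.80 ± 0.31 (adjusted p = 0.00017). AT5G10210 read 188 and 190.3 and 585 and 501, 1.52 ± 0.22 (adjusted p = 0.000824). AT1G55450 lost the call if replicate 1 of day 6 (1.28) or else replicate 2 of day 10 (1.36) was left out. In all 20 the arrays of the 2 days do not overlap. That holds for every call, so it follows from choosing called genes and adds no support.

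Genes dim on 1 day have only a bound. Of those dim on day 10, AT1G19230 was at least 5.47-fold lower, AT1G56720 at least 4.02-fold, AT1G32740 at least 3.93-fold, AT4G14200 at least 3.86-fold and AT5G45650 at least 3.61-fold. Of those dim on day 6, AT3G25790 was at least 3.27-fold higher, ZCF37 at least 2.92-fold, AT2G30930 at least 2.41-fold, AT1G72900 at least 2.31-fold and AT2G39590 at least 2.1-fold. Limma adjusted p ranged to 0.0467 over these 10. AT1G19230 lost the call without replicate 1 of day 10 (adjusted p = 0.0545), ZCF37 without replicate 1 of day 6 (adjusted p = 0.223) or either array of day 10 (adjusted p = 0.0972 and 0.127), and AT1G32740 and AT2G39590 without any 1 of the 4 arrays and under further alternatives.

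**Figure D4:**
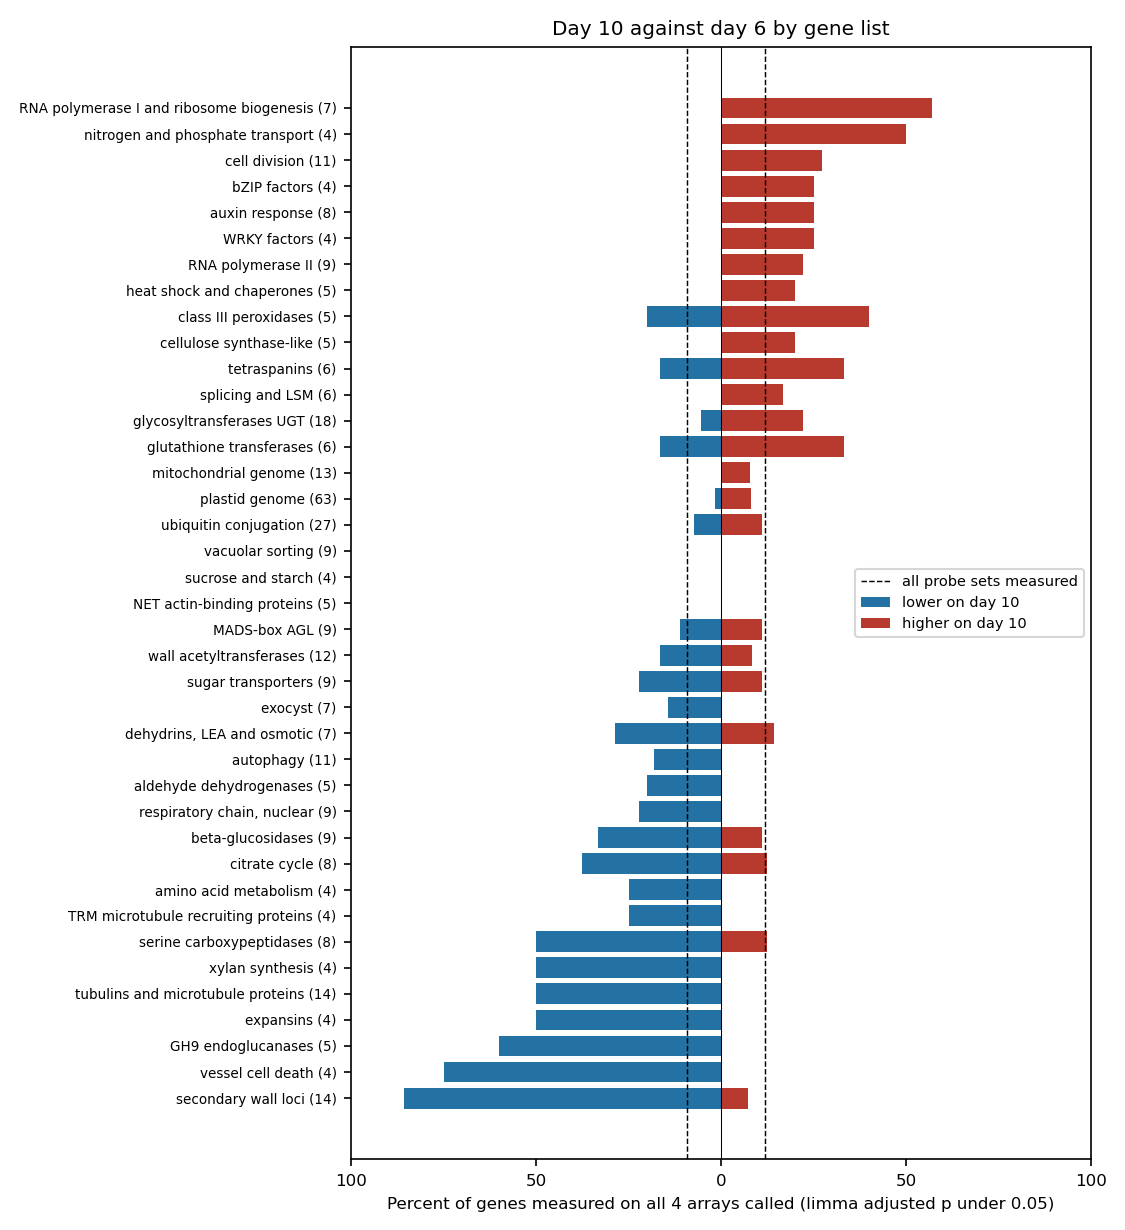
Percent of the genes of each list measured on all 4 arrays that were called, for lists with at least 4 such genes (number in brackets), lower to the left in blue and higher to the right in red, with dashed lines at 9.32% lower and 11.9% higher for all probe sets measured on all 4 arrays. Secondary wall loci, vessel cell death genes and GH9 endoglucanases reach farthest left, and RNA polymerase I and ribosome biogenesis genes farthest right.

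Where day 8 lay between the 2 days was read from the same fit, sharing the arrays of day 6 or day 10 and crossing the change to the 22 C label. Between days 6 and 8, 869 probe sets passed (6.32%), 464 higher (3.37%) and 405 lower (2.94%). With centred arrays they were 218 higher and 552 lower, a share of higher calls of 28.3% against 53.4%. That count was 232 and 233 without replicate 1 or 2 of day 6 and 259 and 144 without replicate 1 or 2 of day 8. Between days 8 and 10, 33 passed (0.24%), 4 higher (0.0291%) and 29 lower (0.211%), with 1232 at an unadjusted p under 0.05. All or nearly all of the 33 adjusted calls between days 8 and 10 were lost when any 1 array of days 6, 8 or 10 was left out. For the 1314 probe sets lower on day 10 the median change was -0.41 from day 6 to day 8 and -0.28 from day 8 to day 10. For the 1631 higher ones it was 0.38 and 0.17. The day 8 mean lay between the means of days 6 and 10 in 97.6% of the lower and 91.7% of the higher calls, and GUT2, for instance, was at a mean of 240.1 on day 8. Since these comparisons share arrays with day 10 against day 6, their values only place day 8.

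Days 4 and 8, both labelled 22 C and also 4 days apart, share no array with days 6 and 10, only the fit's estimate of spread. Probe sets lower on day 10 than on day 6 were lower on day 8 than on day 4 in 871 of 1314 cases (66.3%), and 480 passed in that direction and 176 in the opposite one. Probe sets higher on day 10 were higher on day 8 in 1370 of 1631 cases (84.0%), and 680 passed in that direction and 32 opposite. Of all tested probe sets 53.0% were higher on day 8 than on day 4, and 24.2% passed either way, 12.9% higher and 11.2% lower. Of the tested xylan, lignin and vessel death genes, AT4G04460 alone had a lower value on day 8 than on day 4 (-1.93 ± 0.12, adjusted p = 1.92e-06). GUT2 was higher on day 8 than on day 4 (0.93 ± 0.16, adjusted p = 0.00188), as was HCT (0.92 ± 0.13, adjusted p = 0.000612), although both were lower on day 10 than on day 6. The same held for scpl48 (0.62, limma adjusted p = 0.00458). PRX72, dim on both arrays of day 4, was at least 7.98-fold higher on day 8 (limma adjusted p = 0.00238). The rest of these 3 lists did not pass. Outside them, the tubulin gene TUB6 was lower on day 8 than on day 4 (-0.75 ± 0.13, adjusted p = 0.00204). GH3.3 was dim on both arrays of day 4 and at least 7.98-fold higher on day 8 (adjusted p = 3.08e-06), and UGT73B4, dim on 1 array of day 4, was at least 2.62-fold higher (adjusted p = 0.000135).

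**Figure D5:**
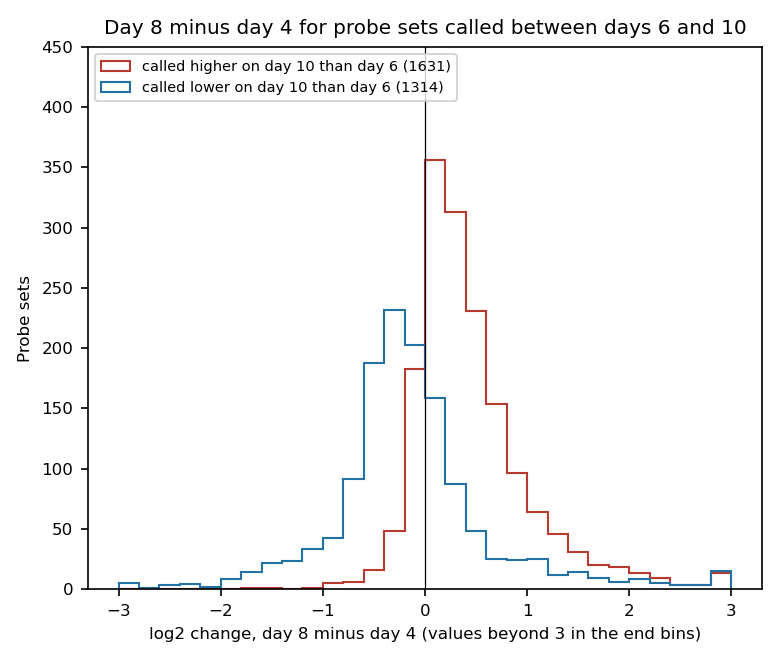
Histograms of the log2 change from day 4 to day 8, in steps of 0.2, for probe sets called higher (red, 1631) and lower (blue, 1314) on day 10 than on day 6. The red distribution lies mostly to the right of 0, with a median of 0.31, and the blue one spreads over both sides, with a median of -0.21.

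The day of the highest mean can be set against all tested probe sets, of which 25.6% had it on day 0, 24.5% on day 2, 13.2% on day 4, 12.9% on day 6 and 16.7% on day 10. Of the lower probe sets, 669 (50.9%) had it on day 6, 344 (26.2%) on day 4, 227 (17.3%) on day 0 and 72 (5.48%) on day 2. Of the higher ones, 603 (37.0%) had it on day 10, 598 (36.7%) on day 2, 374 (22.9%) on day 0, near the share of all tested, and 17 (1.04%) on day 4. Days 6 and 10 are the days compared, so the choice of probe sets affects all these shares, those of the other days too. A lower probe set can peak elsewhere only above its day 6 mean, and no higher one peaked on day 6. On arrays that the comparison did not use, day 2 was above day 4 in 74.9% of the higher probe sets and in 15.1% of the lower ones, against 48.3% of all tested. The median difference, day 2 minus day 4, was 0.44, -0.58 and -0.02. Day 2 is labelled 27 C and day 4 22 C, so time and labelled temperature cannot be told apart there. Day 0 was above day 4 in 47.0%, 25.8% and 41.3%.

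Not measured here were secondary wall cellulose synthases, laccases, cytokinin genes and markers of phloem, fibres, root hairs and epidermis, for none of which a tested probe set was named. The lists for sucrose and starch, cytochromes P450, calcium signalling and organelle RNA editing held 3 or 4 tested genes each and had no call.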

How the data were processed

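Total RNA from 12 samples was hybridised to Affymetrix ATH1 arrays, 2 at each of 6 days, and groups and replicate numbers came from the labels. The values the authors deposited are linear probe set intensity. The submitters' processing notes name MAS5. Its version, the image analysis and any genome build are not given in the sources used here. Of 22810 probe sets, 64 controls were left out, 13513 of the other 22746 were paired with 1 gene by the platform annotation, 503 with several and 8730 with none listed, and those are unnamed here. RefSeq (TAIR10.1) names matched 13436. Each gene was read from the brightest of its tested probe sets, by mean log2 signal.

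Fits were made on log2 signal by limma 3.58.1 under R 4.3.3 (lmFit and trended eBayes), giving each day 1 mean and using all 12 arrays, 6 residual and a median of 5.33 prior degrees of freedom. Tests were 2-sided, Benjamini-Hochberg adjustment ran over 13760 probe sets, and an adjusted p under 0.05 was a call. Standard errors had a median of 0.139. The code of the fit was run on simulated data with known changes. Those data were drawn independently with the fit's own spread and no array or culture effects, so they cannot show that these calls hold. A day with an array below its 40th percentile gives a bound, from arrays raised to that percentile.

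Genes were named by rule: the 10 largest falls and rises measured on all 4 arrays, the 5 largest bounds each way, the 3 largest changes among calls in each list with up to 2 opposite ones, and all measured xylan, lignin, vessel death and xylem regulator genes. Other list members quoted as not passing, or in the same family, were chosen after their values were seen. List counts are over genes at or above the 40th percentile on all 4 arrays, a restriction made after the data were seen. Members and lists were chosen with earlier results of these data known, and lists were trimmed and extended after the annotation was read. Alternatives were quantile normalization, centring on medians, no filter, a 60th percentile filter, a filter over all days, a pseudocount of 8.50, raised arrays, eBayes without a trend, a block for replicate number, the 4 arrays alone, dropping probe sets that several transcripts share, and leaving out 1 array at a time. A lone array is then assumed to vary like the other days.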

Additional observations from a re-analysis of the deposited data

How the results depend on the processing

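For day 10 against day 6, the 11 alternatives other than leaving out an array gave 2528 to 3286 calls against 2945, and leaving out 1 of 12 arrays gave 1561 to 3227. For day 8 against day 6 the 10 that apply (the 4 arrays alone hold no day 8) gave 634 to 1225 against 869, and leaving out an array gave 144 to 1074. The 33 calls of day 10 against day 8 became 72 with quantile normalization, 11 with a filter over all days, 112 with the pseudocount, 157 with raised arrays, 0 with no filter and 0 with no variance trend (limma; 1631 and 1170 at an unadjusted p under 0.05), and 0 to 63 without 1 array. With the replicate number as a block, day 10 against day 6 gave 3192 calls, day 8 against day 6 gave 1019 and day 10 against day 8 gave 20. Higher plastid genes then went from 5 (7.94%) to 21 of 63 (33.3%). The share of all tested probe sets that were higher went from 11.9% to 13.1%. The numbers were not taken as pairs, since same-numbered arrays correlated in their deviations at -0.06 to 0.16 over 15 pairs of days, 0.04 for days 6 and 10, although the 25S ribosomal RNA control read higher on replicate 2 than on replicate 1 on 6 of 6 days. Of 135 named genes, 131 passed, and 69 of them passed in every alternative that tested them, 95 in all but the leave-outs. GUT1, near 0, changed sign without replicate 1 of day 6, with a range of -0.0587 to 0.0048 over the arrays left out. The lost calls given beside single genes are not a full list, and the cause of these shifts was not tested. Signal over background limits dim genes to bounds, and 2 arrays a day limit every call.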
